A study of Mus musculus with 6 samples.

Results

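The 9 genes described here are the Janus kinase genes JAK1, JAK2, JAK3 and TYK2 and the genes STAT2, STAT3, STAT5A, STAT5B and STAT6, which encode signal transducers and activators of transcription. They were found by name among the 20036 genes of the deposited table, each once. Of the 9, 8 had enough reads to be tested, and JAK3 did not. Other STAT genes of the table are not reported here.

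RNA was sequenced from THP-1 cells, which derive from a human monocytic leukaemia and were turned into macrophage-like cells by PMA, a phorbol ester, given for 48 h at 100 ng/ml in the bottom compartment of a Transwell dish. The group called Melittin here (3 libraries) then shared its wells with tumour cells across the membrane for 48 h in the presence of melittin, the lytic peptide of bee venom, at 3 µg/ml. The group with the label NC (3 libraries) is read here as the control, and the labels do not say whether its wells held tumour cells, so an effect of melittin and one of the co-culture cannot be told apart. THP-1 is a single leukaemia-derived line, the tumour line is not named in the labels, and the labels do not state that replicate libraries are from different cultures. The p-values therefore speak only of the variation among these 6 libraries, possibly technical. The organism label reads mouse, while all 20036 gene identifiers are human and 0 are mouse.

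Cytokine receptors of the class that lacks a kinase of its own carry a pair of Janus kinases on their inner tails. A bound cytokine brings these kinases together, they phosphorylate the receptor, and a STAT protein docks there, is phosphorylated, pairs up and moves to the nucleus to switch on genes. In macrophages STAT2 serves the type I interferon response together with IRF9, STAT3 serves interleukin-6 and interleukin-10, STAT5A and STAT5B serve the colony-stimulating factor GM-CSF, and STAT6 serves interleukin-4 and interleukin-13, the cytokines of the M2-type state that the title of the series names. Transcript levels do not show whether a kinase is active or a STAT is phosphorylated.

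Total counts were 16001423 to 19597781 per library. Across all genes 9190 of 12029 tested (76.4%) passed an adjusted p of 0.05 by edgeR's quasi-likelihood test, 38.1% as higher and 38.3% as lower, so a call by itself sets no gene apart. Of 9 macrophage markers 8 were tested, of which 2 rose and 5 fell, and their summed level was 1853 to 1873 CPM (counts normalised by library total and TMM factor) in NC and from 1548 to 1579 CPM in Melittin libraries. CD68, a common macrophage marker, had 1 count in all. The epithelial markers EPCAM, KRT18 and KRT19 had 0 counts in all 6 libraries, as did CD3D, MS4A1 and COL1A2 of T cells, B cells and fibroblasts. KLK3, a prostate marker, had 0 counts in NC and 2 counts over the Melittin libraries. Of the prostate and epithelial list only these named members are reported here. They do not stand for the whole list, other members of which had reads in both groups. The 5 T and NK cell markers summed to 2.72 to 3.59 CPM in NC and 9.95 to 11.35 CPM with melittin, and the 1 tested, NKG7, rose. The 4 fibroblast markers summed to 18.9 to 19.73 CPM in NC and 23.93 to 26.99 CPM with melittin, and the 1 tested, COL1A1, rose. The 3 B cell markers, none of them tested, summed to at most 0.492 CPM in NC and at least 0.715 CPM with melittin. Whether changes in these markers had a part in the results below was not tested, and in bulk RNA fewer cells of a kind and less RNA per cell cannot be told apart.

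Of the 8 tested members, 3 were higher with melittin (STAT5A, JAK1 and TYK2) and 4 were lower (JAK2, STAT6, STAT2 and STAT3), while STAT5B did not pass. These 7 calls of 8 stand beside 76.4% of all genes, and the CPM of the groups did not overlap in 7 of 8 members, beside 77.4% of all genes, so neither count sets the members apart. Against a change of 1.5-fold rather than none, 3 members passed (STAT5A, JAK1 and JAK2), beside 29.1% of all genes. The median log2 fold change of the 8 was −0.14, and that of all tested genes −0.007. The family thus did not move as a block, and within both the kinases and the STATs some genes rose and others fell.

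**Figure D1:**
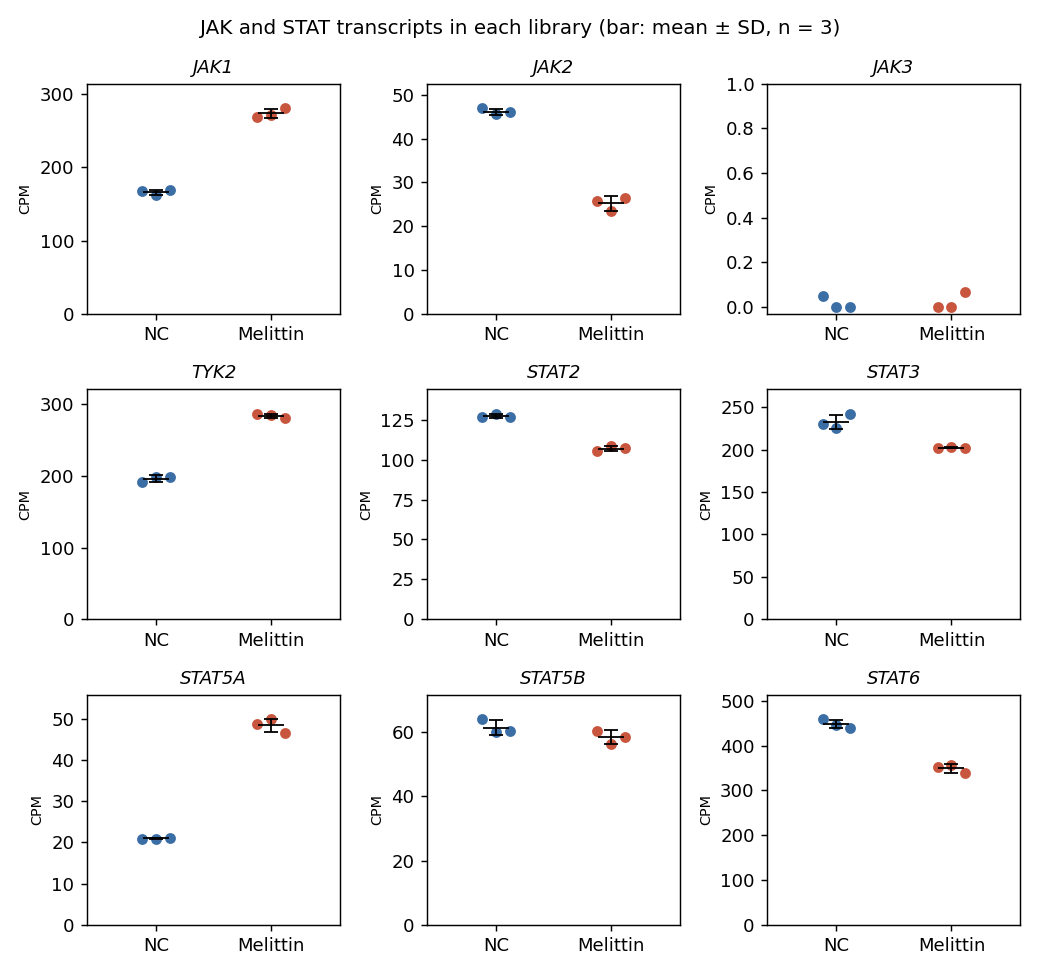
CPM of each of the 9 genes (vertical axes, each starting at or just below 0) in the 3 NC and 3 Melittin libraries, with the mean ± SD of each group except for JAK3. The groups are apart in 7 genes, beside 77.4% of all tested genes, and overlap in STAT5B, and JAK3 lies at or near 0 in every library.

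Among the kinases, JAK1, which serves nearly all receptors of this class, rose with melittin. JAK1 (ENSG00000162434, chromosome 1, 64833223 to 65067754, minus strand, GRCh38) was at 167.8, 162.1 and 168.5 CPM in NC libraries and at 268.9, 271.8 and 280.9 CPM in Melittin libraries. The groups did not overlap, the means being 166.1 ± 3.52 and 273.8 ± 6.28 CPM (SD, n = 3), a 1.65-fold rise (log2 fold change 0.72, SE 0.0292, edgeR adjusted p = 2.19e-18). It was past the 1.5-fold test as well (adjusted p = 3.86e-05). The span of JAK1 overlaps RAVER2 by 10 bases on the opposite strand.

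TYK2, the partner of JAK1 on the type I interferon and interleukin-10 receptors, also rose. TYK2 (ENSG00000105397, chromosome 19, 10350533 to 10380608, minus strand) stood at 191.1, 199.0 and 198.8 CPM in NC and at 286.8, 284.6 and 281.1 CPM with melittin. All 3 Melittin libraries lay above every NC library, with a 1.45-fold rise (log2 fold change 0.53, SE 0.0278, edgeR adjusted p = 6.89e-16), which did not pass the 1.5-fold test.

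JAK2, the kinase of the GM-CSF, interleukin-3 and interferon-gamma receptors, went the other way. JAK2 (ENSG00000096968, chromosome 9, 4984390 to 5129948, plus strand) read 46.9, 45.6 and 46.1 CPM in NC and 25.7, 23.4 and 26.5 CPM with melittin. The lowest NC library was well above the highest Melittin library, and the gene was 1.84-fold lower (log2 fold change −0.88, SE 0.0614, edgeR adjusted p = 4.43e-13; 3.04e-05 against 1.5-fold). Of all tested genes 76.2% had a smaller change in either direction. The span of JAK2 overlaps INSL6 by 6069 bases on the opposite strand. INSL6 had 9 counts over all libraries, and reads from this overlap cannot be assigned with certainty.

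JAK3, which pairs with the common gamma chain of interleukin-2-type receptors, was all but absent from the counts. JAK3 (ENSG00000105639, chromosome 19, 17824780 to 17848071, minus strand) had 1, 0 and 0 counts in NC and 0, 0 and 1 with melittin. In a library with 0 counts, 3 counts, the limit that such a zero allows for counting error, correspond to at most 0.195 CPM. No difference was detectable at this depth, and the gene overlaps no other gene of the table. The common gamma chain itself, IL2RG, had 2, 2 and 1 counts in NC and 4, 3 and 0 with melittin. Whether the low values come from the counting or from the cells was not tested.

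The STAT with the largest change was STAT5A, which with STAT5B serves GM-CSF and interleukin-3. STAT5A (ENSG00000126561, chromosome 17, 42287547 to 42311943, plus strand) was at 20.9, 20.9 and 21.2 CPM in NC and at 48.8, 49.98 and 46.7 CPM with melittin. Melittin libraries stood 2.31-fold above NC libraries with no overlap (log2 fold change 1.21, SE 0.0608, edgeR adjusted p = 3.00e-16; 9.61e-11 against 1.5-fold). Of all tested genes 86.3% changed less in either direction.

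Its paralog STAT5B did not follow. STAT5B (ENSG00000173757, chromosome 17, 42199176 to 42288633, minus strand) read 64.1, 60.0 and 60.4 CPM in NC and 60.5, 56.3 and 58.6 CPM with melittin. The groups overlapped, and the log2 fold change of −0.07 (SE 0.0478, edgeR adjusted p = 0.158) had a 95% interval of −0.17 to 0.02, so a rise like that of STAT5A lies outside it. The pair is encoded head to head on opposite strands with 1087 shared bases, and the proteins and transcripts are much alike. The sources used here do not give the strand setting of the counting or how reads that fit both genes were handled, so the division of reads between STAT5A and STAT5B is uncertain.

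STAT3 lies beside them, 1380 bases past the end of STAT5A. This gene, the STAT of interleukin-6 and interleukin-10, fell slightly. STAT3 (ENSG00000168610, chromosome 17, 42313324 to 42388540, minus strand) was at 230.3, 225.0 and 242.2 CPM in NC and at 202.4, 202.7 and 201.9 CPM with melittin. The groups were apart, but the fall was only 1.15-fold (log2 fold change −0.20, SE 0.03, edgeR adjusted p = 1.12e-06), and 23.6% of all tested genes changed less. Of the 3 neighbours on chromosome 17, 1 thus rose, 1 fell and 1 did not pass.

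STAT6, the STAT of interleukin-4 and interleukin-13, was the most abundant member in both groups and fell. STAT6 (ENSG00000166888, chromosome 12, 57095408 to 57132139, minus strand) read 458.8, 446.0 and 439.9 CPM in NC and 353.0, 356.9 and 337.9 CPM with melittin. No Melittin library reached the lowest NC library, and the gene was 1.28-fold lower (log2 fold change −0.36, SE 0.027, edgeR adjusted p = 1.98e-12). Its span overlaps LRP1 by 3657 bases and NAB2 by 69 bases on the opposite strand, and reads from these overlaps cannot be assigned with certainty.

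STAT2, the STAT particular to type I and type III interferon signalling, also fell. STAT2 (ENSG00000170581, chromosome 12, 56341597 to 56360203, minus strand) was at 126.5, 128.8 and 126.8 CPM in NC and at 105.3, 108.7 and 107.0 CPM with melittin. Every Melittin library lay below every NC library, at 1.19-fold lower (log2 fold change −0.25, SE 0.0338, edgeR adjusted p = 1.73e-07). STAT2, STAT3 and STAT6 all missed the 1.5-fold test.

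The sizes of the small changes depended on how libraries were scaled. With libraries scaled by their totals alone, the median change over all tested genes moved to −0.24, the share of higher genes among those called from 49.8 to 33.6%, and the split of the members to 3 higher and 5 lower. TYK2 was then at 0.30, JAK1 at 0.49, STAT6 at −0.59, STAT2 at −0.48 and STAT3 at −0.43 on the log2 scale, and STAT5B passed as lower (−0.31, edgeR adjusted p = 1.83e-06). With the trend of fold change on gene length removed, a value without a test, STAT3 was at −0.02, STAT2 at −0.11 and STAT5B at 0.12. STAT5A, JAK1, TYK2, JAK2, STAT6, STAT2 and STAT3 kept their direction under both. STAT5A (0.98 and 1.25) and JAK2 (−1.11 and −0.79) moved least in proportion.

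**Figure D2:**
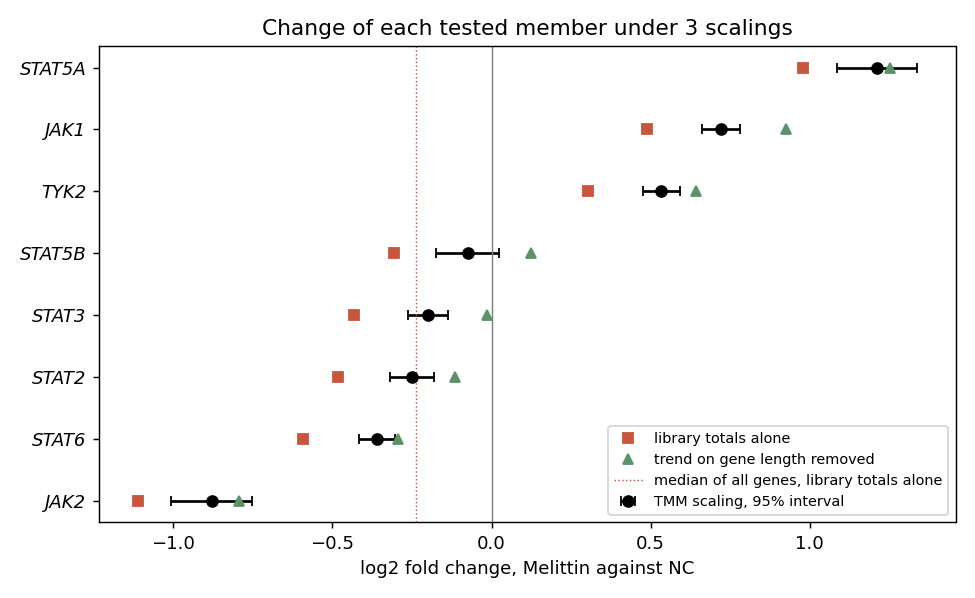
Log2 fold change of Melittin against NC (horizontal axis) for the 8 tested members, with TMM scaling and its 95% interval (black), with libraries scaled by totals alone (squares) and with the length trend removed (triangles); the dotted line is the median of all genes with totals alone. STAT5A, JAK1 and TYK2 lie right of 0 and JAK2, STAT6, STAT2 and STAT3 left of 0 under all 3, while STAT5B changes side.

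Ratios between genes of the same library do not depend on scaling. STAT5A had 0.326, 0.348 and 0.351 reads per STAT5B read in NC and 0.806, 0.888 and 0.797 with melittin. This ratio was 2.43-fold higher with melittin, a shift of 1.28 on the log2 scale against a pooled SD of 0.0737. Corrected for gene length, STAT5A was below STAT5B in every NC library (ratio of FPKM, reads scaled to gene length and library total, 0.648 ± 0.0262, SD, n = 3) and above it in every Melittin library (1.58 ± 0.0952). In reads STAT5A stayed below STAT5B in every library. The crossing thus rests on the deposited gene lengths, 6385 bases for STAT5A and 12110 for STAT5B, and other lengths could remove it.

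JAK1 gave 3.58, 3.56 and 3.66 reads per JAK2 read in NC and 10.5, 11.6 and 10.6 with melittin, a 3.03-fold shift. TYK2 gave 4.25 ± 0.158 reads per JAK2 read in NC and 11.3 ± 0.789 with melittin (SD, n = 3), a 2.66-fold shift. The balance of JAK1 against TYK2 moved little, from 0.847 ± 0.0319 to 0.964 ± 0.0319, a 1.14-fold shift. In each of these 4 ratios the groups did not overlap, and the exact two-sided permutation test gave p = 0.1, the smallest it can give with 3 libraries against 3, also after adjustment over the 4. The share of all gene pairs whose ratios separate was not computed. Since 77.4% of all tested genes separated in CPM, the lack of overlap does not set these ratios apart. The ratios restate the fold changes given above.

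**Figure D3:**
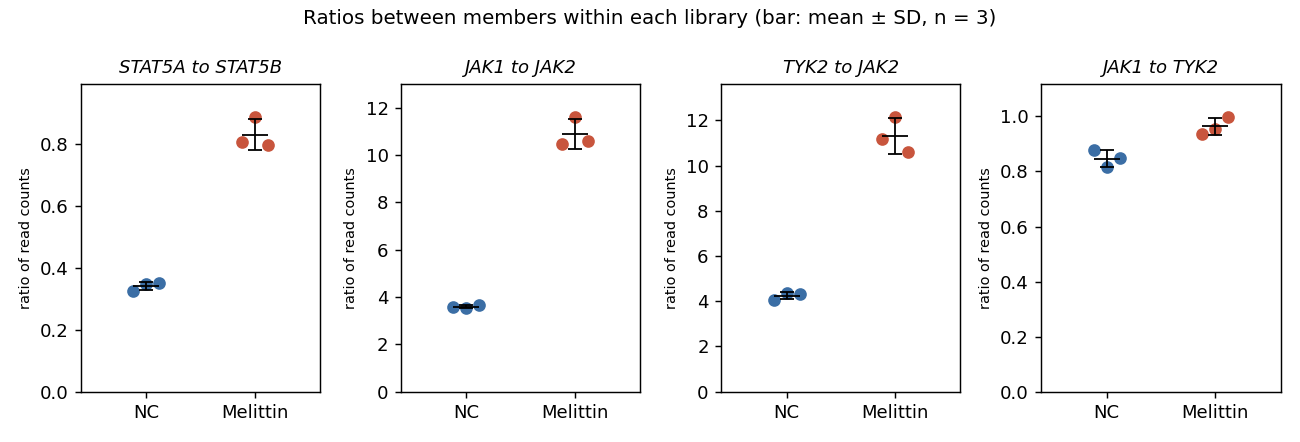
Ratio of read counts between members within each library (vertical axes from 0) for the 3 NC and 3 Melittin libraries, with mean ± SD. The ratio of STAT5A to STAT5B goes from 0.342 to 0.830 and that of JAK1 to JAK2 from 3.60 to 10.9, while that of JAK1 to TYK2 moves 1.14-fold.

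Levels of different genes can be compared per length, in FPKM, and the order then depends on the deposited gene lengths. In NC the order was STAT6 (66.5 ± 1.48 FPKM, SD, n = 3), TYK2 (24.9 ± 0.559), STAT3 (22.5 ± 0.826), STAT2 (14.8 ± 0.151), JAK1 (13.7 ± 0.281), JAK2 (6.33 ± 0.0957), STAT5B (5.498 ± 0.203), STAT5A (3.56 ± 0.0299) and JAK3, which was at most 0.00637 FPKM. With melittin it was STAT6 (44.1 ± 1.30), TYK2 (30.8 ± 0.387), JAK1 (19.2 ± 0.409), STAT3 (16.7 ± 0.0631), STAT2 (10.6 ± 0.137), STAT5A (7.01 ± 0.239), STAT5B (4.45 ± 0.177), JAK2 (2.94 ± 0.192) and JAK3. In neither group did the 3 values of a gene overlap those of the next gene in the order. JAK1 moved past STAT3 and STAT2, STAT5A moved past STAT5B and JAK2, and JAK2 dropped from the sixth to the eighth place.

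As shares of the FPKM summed over the 4 kinases, JAK2 made up 14.1 ± 0.311% in NC and 5.55 ± 0.324% with melittin, JAK1 30.4 ± 0.649% and 36.3 ± 0.686%, and TYK2 55.5 ± 0.917% and 58.2 ± 0.846% (SD, n = 3). With the deposited gene lengths TYK2 was thus the larger part of the kinase pool in both groups. In reads JAK1 and TYK2 were closer, with 0.847 JAK1 reads per TYK2 read in NC and 0.964 with melittin. Among the 5 STATs, STAT6 made up 58.9 ± 0.779% in NC and 53.3 ± 0.554% with melittin, and STAT5A 3.15 ± 0.0527% and 8.45 ± 0.136%. STAT3 took 19.9 ± 0.782% and 20.1 ± 0.333% and STAT2 13.1 ± 0.264% and 12.8 ± 0.278%, values that overlapped between the groups.

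**Figure D4:**
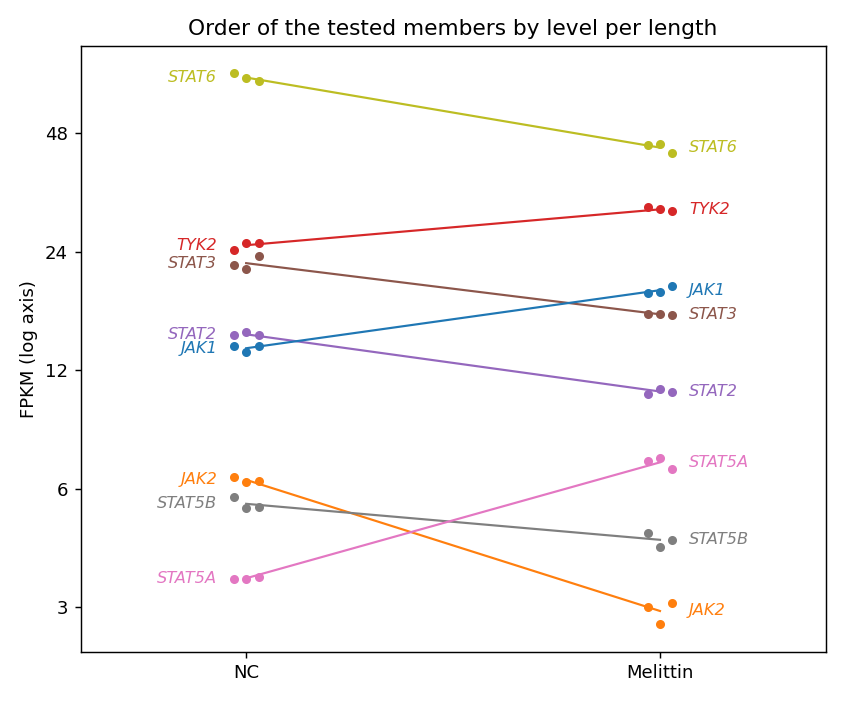
FPKM (log axis) of the 8 tested members in each NC and Melittin library (points), with lines between the group means. STAT6 is highest in both groups at 66.5 and 44.1, and JAK2 goes from 6.33 to 2.94 while STAT5A goes from 3.56 to 7.01.

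Many genes shared the members' profiles over the 6 libraries. For STAT5A, the member with the largest rise, the nearest of 7956 genes by centred log2 CPM included COL6A3 and TKT (root mean square distance 0.0285 and 0.0328), and 194 genes lay within 0.1. For JAK2, the member with the largest fall, they were GPNMB, FRYL and MYD88 (0.0296, 0.0321 and 0.0322), with 307 genes within 0.1.

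The genes around the kinases and STATs were read from 7 lists, beginning with the cytokines that start the pathway. All 7 were chosen with earlier results of these data known. Over all tested genes 38.1% were higher and 38.3% lower. Of 32 ligand genes, 12 were tested, 9 rose and 0 fell (median log2 fold change 2.82), and 9 had 0 counts in every library. This split and median rest in part on the low-count filter, because ligands low in NC, such as CSF2, entered the test only through their Melittin counts. IL7, with 17, 11 and 14 counts in NC and 2, 2 and 5 with melittin, was filtered out. Without the filter 12 ligands were higher and 2 lower. With any of the 6 libraries left out 1 or 2 ligands were lower (IL7, CLCF1 or both), and at an unadjusted p under 0.05 CLCF1 was lower in the full comparison. CSF2, which encodes GM-CSF, a cytokine that signals through JAK2 and STAT5, went from 0.209 ± 0.0746 to 12.6 ± 0.757 CPM (SD, n = 3; 4, 3 and 5 counts against 206, 214 and 185). IL23A, a subunit of interleukin-23, and CSF3, which encodes G-CSF, had log2 fold changes of 7.21 and 5.98. Interferon transcripts were near or at 0: IFNB1 had 3 counts over the NC and 1 over the Melittin libraries, and IFNG and IFNL1 had 0.

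Of 36 receptor chains, 30 were tested, 20 rose and 5 fell (median 0.90), beside 38.1% higher and 38.3% lower over all genes. The 25 called of 30 stand beside 76.4% of all genes. With libraries scaled by totals alone 18 rose and 7 fell. The chains that bind GM-CSF and interleukin-3 rose together: CSF2RB, the shared signalling chain that carries JAK2, went from 72.0 ± 2.11 to 205.7 ± 3.02 CPM, CSF2RA had a log2 fold change of 1.68, and IL3RA went from 17.04 ± 2.45 to 177.7 ± 13.8 CPM. CRLF2, a receptor chain that binds the cytokine TSLP, and IL2RB were also higher, CRLF2 with 0, 4 and 0 counts in NC and 221, 240 and 236 with melittin, and IL2RB with a log2 fold change of 2.33.

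The chains that fell were IL6ST, IL21R, IFNAR1, IFNGR2 and IFNGR1. IL6ST, which encodes gp130, the signalling chain of the interleukin-6 family and a partner of JAK1 and STAT3, went from 106.6 ± 0.729 to 56.7 ± 1.49 CPM, while its partner OSMR had a log2 fold change of 1.31 and IL6R one of 0.76. IL21R fell by 0.52 on the log2 scale. The interferon receptor chains split: IFNAR1 fell by 0.39, IFNGR2 by 0.24 and IFNGR1 by 0.17 on the log2 scale, and IFNAR2 rose by 1.58 from a low level of 3.20 ± 0.535 CPM. For interleukin-4 and interleukin-13, IL13RA1 rose by 0.63, while IL4R had a log2 fold change of 0.09 (edgeR adjusted p = 0.0355). The IL4R call ended without NC replicate 1, 2 or 3 or Melittin replicate 1 or 3 (0.07 to 0.10), and the gene was lower with libraries scaled by totals alone (−0.14).

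Inhibitors of the pathway went both ways, with 8 of 19 tested members higher and 8 lower (median −0.01), beside 38.1% higher and 38.3% lower over all genes, and 4 higher and 11 lower with libraries scaled by totals alone. The 3 with the largest rise were genes that STATs themselves switch on as feedback. CISH, a feedback inhibitor induced by STAT5, went from 0.897 ± 0.196 to 15.8 ± 0.966 CPM, SOCS3, which blocks signalling from gp130, rose by 2.71 on the log2 scale, and SOCS1, with 3 to 6 counts in NC and 20, 51 and 20 with melittin, by 2.94. Those with the largest fall were USP18, which dampens type I interferon signalling and is itself induced by interferon (log2 fold change −1.44), PTPRC, the phosphatase CD45 (−1.40), and SOCS4 (−0.58).

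The last 4 lists hold genes linked to each STAT in background knowledge, and 12 genes stand in more than 1 of the 7 lists. Because earlier results of these data were known when the lists were chosen, their counts are description. They do not test the activity of a STAT. STAT2-linked interferon genes were lower in 24 of 28 tested members and higher in 1 (median −2.10), beside 38.3% lower and 38.1% higher over all genes. RSAD2, IFIT1 and IFI44L, all antiviral effectors, fell the most, RSAD2 from 27.7 ± 0.438 to 0.929 ± 0.0787 CPM and IFI44L from 22.2 ± 1.67 to 1.35 ± 0.312 CPM. The member that rose was IRF7, by 0.19 (edgeR adjusted p = 0.048), and it was at −0.04 with libraries scaled by totals alone and did not pass without NC replicate 1 or 3 or Melittin replicate 2 or 3 (0.12 to 0.19). IRF9, the DNA-binding partner of STAT2, was low, with 29 to 44 counts in NC and 20 to 31 with melittin, and did not pass (−0.19, edgeR adjusted p = 0.535). The fall of STAT2 itself, −0.25, was smaller than this list's median.

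STAT5-linked genes were higher in 13 of 14 tested members and lower in 1 (median 1.36), beside 38.1% higher and 38.3% lower over all genes. CCND2, which encodes cyclin D2, went from 0.370 ± 0.0772 to 8.59 ± 0.285 CPM, and CISH and SOCS1, already described, were next. MYC, which is in the STAT3 list too, was the member that fell, from 62.3 ± 1.59 to 17.7 ± 0.88 CPM. STAT3-linked genes were higher in 18 and lower in 3 of 22 (median 0.75), beside the same shares over all genes. With libraries scaled by totals alone 15 were higher and 5 lower. Beside SOCS3, IL1RN, the interleukin-1 receptor antagonist, and PIM1, a survival kinase, had the largest rises (1.79 and 1.52), and beside MYC, CCND1 and VEGFA fell, both by 0.13 on the log2 scale.

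STAT6-linked genes divided. Of 22, only 13 were tested, 8 rose and 4 fell (median 0.58), beside 38.1% higher and 38.3% lower over all genes. CCL22, a chemokine induced by interleukin-4, went from 0.284 ± 0.122 to 11.5 ± 0.929 CPM, and the others among the largest rises were CISH and SOCS1, which this list shares with the STAT5 list. The lipid-presenting molecules fell: CD1A had 78, 77 and 58 counts in NC and 2, 0 and 1 with melittin, and CD1C had a log2 fold change of −2.17. IL17RB (−0.95, edgeR adjusted p = 0.0315) and PPARG, a nuclear receptor of alternative activation (−0.84), were the other members that fell. The IL17RB call ended without NC replicate 1 (−0.64) and without Melittin replicate 1 (−0.59) or 2 (−0.71) and by DESeq2 (−0.93, adjusted p = 0.0731). ALOX15, MRC1, CCL17 and CCL18, common readouts of interleukin-4 in human macrophages, had at most 8 counts in any library and were not tested.

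**Figure D5:**
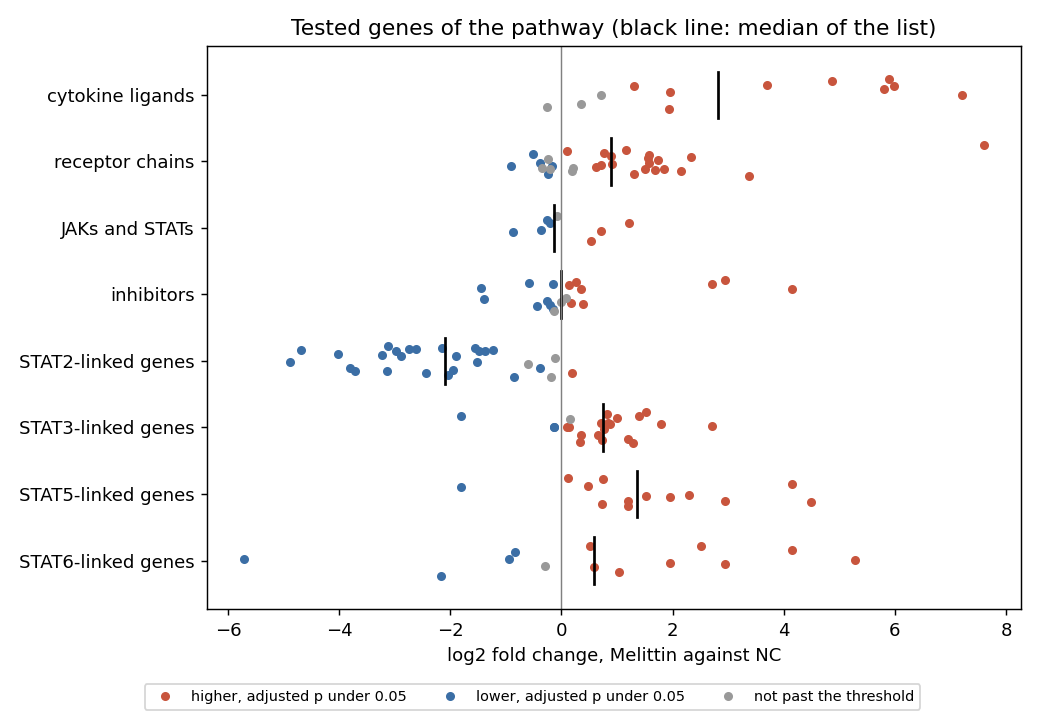
Log2 fold change of Melittin against NC (horizontal axis) for the tested genes of the 7 lists and the 8 tested members (points, coloured by call; small vertical offsets are only for legibility), with each list's median as a black line. IL2RA, at 0 counts in every NC library, is left out of the points. The members lie on both sides of 0 around a median of −0.14, between the ligand list at 2.82 and the STAT2-linked list at −2.10. The ligand median rests in part on the low-count filter.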

How the data were processed

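Per the labels' protocols, extraction of total RNA used chloroform, and the library kit was NEBNext Ultra II. The build was GRCh38 per the submitters' processing notes, while the sources used here name no aligner, counter, strand setting or annotation version. The authors deposited raw read counts per gene and FPKM values, which equal count over gene length and library total within a relative deviation of 2.2e-09. A second deposited table holds the same FPKM.

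The count analysis used edgeR 4.0.16 (R 4.3.3) with filterByExpr, TMM factors, glmQLFit, glmQLFTest and glmTreat against 1.5-fold, with Benjamini-Hochberg adjustment over all 12029 genes tested and a threshold of 0.05. An SE is the log2 fold change, without its sign, over the square root of F, and 95% intervals use it. A single count was worth 0.0471 to 0.067 CPM. Replicates differed by more than sampling noise (chi-square per degree of freedom 1.73 to 3.92). The steps were also run on simulated counts in which a small part of the genes changed, in both directions. That setting differs from these data, where 76.4% of genes were called, so it does not speak to the scaling here. Members and lists were chosen with earlier results of these data known. Genes of any list that were low in either group, such as CRLF2, CCL22 and CD1A, entered the test only through the other group. List genes named are the up to 3 largest passing rises and falls at a mean of at least 1 CPM. For the members with the largest rise and fall, the 3 named genes nearest in profile at a mean of at least 10 CPM were taken. Other list genes were chosen after their values were seen. Some genes these rules select, and part of the prostate and epithelial marker list, are not reported here. The reference sequences at hand are of mouse and were not used here.

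Alternatives were other scalings and filters, DESeq2 1.42.0, limma-voom (limma 3.58.1), limma on log2(FPKM + 0.1), the length trend removed, a replicate block and each library left out.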

Additional observations from a re-analysis of the deposited data

How the results depend on the processing

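Across the alternatives STAT5A, JAK1 and TYK2 stayed higher and JAK2, STAT6, STAT2 and STAT3 lower, past the threshold wherever a test was run. STAT5B passed as lower with libraries scaled by totals alone (−0.31), with library sizes that leave out the 20 genes with most reads (−0.21) and on FPKM (−0.30). With the length trend removed it was at 0.12, JAK1 at 0.93, JAK2 at −0.79, TYK2 at 0.64, STAT2 at −0.11, STAT3 at −0.015, STAT5A at 1.25 and STAT6 at −0.29. That setting has no test and gives no count.

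Some list counts moved. With libraries scaled by totals alone 1 ligand (CLCF1), 5 STAT3-linked and 2 STAT5-linked genes were lower, and 4 inhibitors and 0 STAT2-linked genes were higher. With those library sizes that leave out 20 genes 1 ligand was lower, 5 inhibitors and 0 STAT2-linked genes higher. Without a low-count filter 2 ligands (IL7 and CLCF1) were lower and 0 STAT2-linked genes higher, the latter also with DESeq2. On FPKM 2 ligands, 5 STAT3-linked and 2 STAT5-linked genes were lower, and 4 inhibitors and 0 STAT2-linked genes higher. With a library left out, 1 to 2 ligands were lower and 0 to 1 STAT2-linked genes (IRF7, lost without NC replicate 1 or 3 and Melittin replicate 2 or 3) higher. Apart from settings that test other genes or samples, the cause was not tested.

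Same-numbered libraries did not deviate together (correlations −0.0472, 0.0135 and −0.0213). This does not show whether they were cultured or processed together, which the labels do not state. With the replicate block 9050 genes passed against 9190, and 3 members were higher and 4 lower, as without it. Among list genes the block ended the calls of IL17RB (−0.97, adjusted p = 0.0576) and IL11RA (0.72, adjusted p = 0.0686), and DESeq2 those of IL17RB, IL11RA, IL4R, SOCS5, PTPN2 and IRF7. Depth limits JAK3, IL2RG and most ligands.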
